A study of Mus musculus with 6 samples.

Results

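Transcripts of the heat shock proteins and J-domain chaperones were compared in liver between mice with floxed Mettl3 alleles (flox/flox, 3 libraries) and mice with a hepatocyte-specific Mettl3 knockout (HKO, 3 libraries), all 8 weeks old and fed normal chow. A floxed allele stays intact without Cre recombinase, so the flox/flox mice are the controls. METTL3 is the methyltransferase that writes the m6A mark on mRNA. The sources used here do not give the promoter behind the hepatocyte-specific deletion, the exons deleted, the sex of the mice or whether every library is 1 mouse of its own. The members were all protein-coding genes of the deposited table whose symbol begins with Hspa, Hspb, Hspd, Hspe, Hsph, Hsp90 or Dnaj, without the ER stress genes Hspa5, Hsp90b1 and Dnajb9 and without Hspbap1. This gave 70 genes of 22058 protein-coding genes and 54086 features, 26 with an Hsp symbol and 44 with a Dnaj symbol. By the usual place of the protein 47 were grouped as cytosolic (with nucleus, ribosome and vesicle surface), 8 as mitochondrial and 11 as endoplasmic reticulum (ER) members, and 4 of less certain place (Dnajc22, Dnajc4, Dnajc28 and Hspb11) stayed in none of these groups.

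HSP70 proteins bind short hydrophobic stretches of unfolded protein and release them in a cycle driven by ATP. J-domain proteins (Dnaj) bring clients to HSP70 and stimulate its ATPase, and HSP110 and other exchange factors eject ADP to reset it. HSP90 acts later, on near-native clients such as kinases and steroid receptors, the small heat shock proteins (Hspb) hold aggregating protein without ATP, and HSP60 with HSP10 forms the folding chamber of the mitochondrial matrix. On protein damage the transcription factor HSF1 binds heat shock elements, inverted repeats of the unit GAA and its complement TTC, in the promoters of the inducible genes. Liver cells make and secrete much protein and keep the constitutive chaperones at high levels without heat.

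Expression was deposited as FPKM, fragments divided by gene length in kilobases and by a depth factor of the library. The whole reads rebuilt from FPKM came to 16529358 to 18556076 in each library, of which 73634 to 120210 came from the members. The depth factors in the deposited FPKM differed by genotype, at 0.852 to 0.885 of their geometric mean in flox/flox and 1.05 to 1.29 in libraries labelled HKO. Scaling by library totals therefore moves the median log2 difference of all tested genes from -0.06 to 0.26, and directions below are for the deposited scaling unless stated. Mettl3 stood at 1.88, 2.17 and 1.98 FPKM in the controls and at 2.45, 2.14 and 2.06 FPKM in the libraries labelled HKO (limma adjusted p = 0.582). Reads of undeleted exons and of other liver cells enter this whole-gene level, so it does not check the labels, on which every direction rests. Hepatocyte markers (Alb, Ttr, Apoa1, Serpina1a, Tat and Hnf4a) were high throughout, at a summed 43712 to 72568 FPKM in flox/flox and 20368 to 40425 FPKM in HKO. The summed Kupffer cell markers were at 41.4 to 163 FPKM in flox/flox and 216 to 289.9 FPKM in HKO libraries, and the stellate cell and fibroblast markers at 43.4 to 56.6 and 67.3 to 94.2 FPKM, with 3 of these 6 genes called higher. None of the 5 Kupffer (5 at an unadjusted p under 0.05), 6 hepatocyte, 5 endothelial or 3 erythroid markers passed, and the B and T cell markers were too low to test. Called higher were 1 of 2 tested cholangiocyte markers (Sox9) and 2 of 2 tested neutrophil markers (S100a8 and S100a9). Their flox/flox means were 0.703, 0.287 and 0.679 FPKM, so they passed the level filter only through the HKO libraries, where they were higher. By library totals or with equal FPKM sums all 5 Kupffer and all 6 stellate and fibroblast markers were called higher, and 2 and 4 of them under quantile normalization. In whole liver, a change in the number of cells of a type and a change of RNA per cell cannot be told apart.

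With the deposited scaling, most tested chaperone transcripts differed little between the genotypes. Of the 70 members 51 had a mean of at least 1 FPKM and were tested, and 5 of them passed the threshold: Hspb6, Hspb1, Hspa2 and Dnajc22 were lower and Dnajc9 was higher in the libraries labelled HKO. This is 9.80% of the tested members, against 12.8% of all 11086 tested features (limma on log2(FPKM + 1), two-sided, Benjamini-Hochberg adjusted p under 0.05). By direction, 1 of 51 rose, against 5.95% of all tested features, and 4 of 51 fell, against 6.86%, so neither share stands apart from the background. The median log2 difference over tested members was -0.14, beside -0.06 over all tested features, and 44 of the 51 members (86.3%) stayed within 0.5 on the log2 scale, as did 76.5% of all tested features. By library totals the 2 medians were 0.22 and 0.26. The log2(FPKM + 1) scale understates changes of low genes, and 33 of the tested members had means of 1 to 10 FPKM. Without overlap between the 3 values of each group were 22 members, 6 higher and 16 lower, beside 41.4% of all tested features (16.8% higher and 24.7% lower). The calls depended on which library was left out. Without flox/flox replicate 3 or without HKO replicate 1 no member passed, and 30 and 60 features passed in all. Without flox/flox replicate 1, Dnajc22, Dnaja1, Hspb1, Hspb6 and Hspa2 passed, all lower in HKO. Hspb6 passed in 4 of the 6 fits with a library left out. At an unadjusted p under 0.05 the members numbered 15 of 51, beside 33.8% of all tested features.

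**Figure D1:**
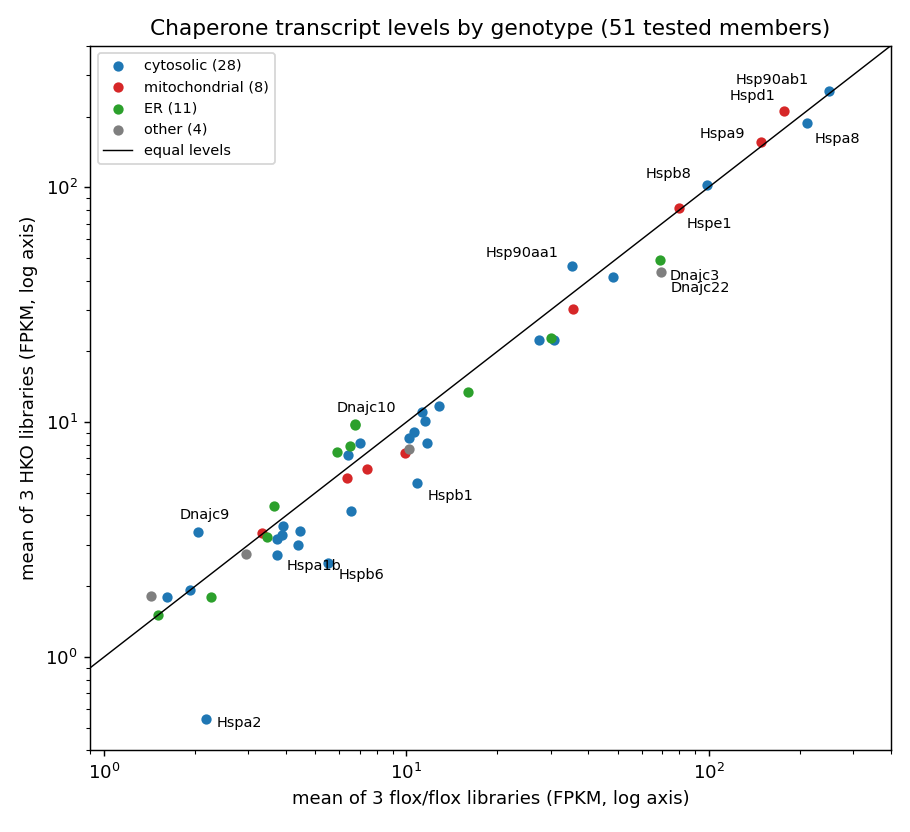
Mean level of each of the 51 tested members in the 3 flox/flox libraries (x axis, FPKM, log scale) and in the 3 HKO libraries (y axis, FPKM, log scale), coloured by place of the protein; the line marks equal levels. Most points lie near the line over the whole range from 1.36 to 254 FPKM, and Hspa2, Hspb6, Hspb1 and Dnajc22 lie below it.

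Added over all 70 members, the level was 1414, 1539 and 1697 FPKM in the 3 controls and 1488, 1454 and 1519 FPKM in the libraries labelled HKO. The sums overlap between genotypes and spread more among the controls than among the HKO libraries. As a share of rebuilt reads the members took 0.397%, 0.507% and 0.557% in flox/flox and 0.597%, 0.557% and 0.668% in HKO libraries, so the order of the genotypes differs from that of the FPKM sums. A few genes made up most of the level. Hsp90ab1, Hspa8, Hspd1, Hspa9 and Hspb8 together held 59.4% of the summed FPKM. By level, 5 tested members had a mean of 100 FPKM or more, 13 had 10 to 100 FPKM and 33 had 1 to 10 FPKM.

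**Figure D2:**
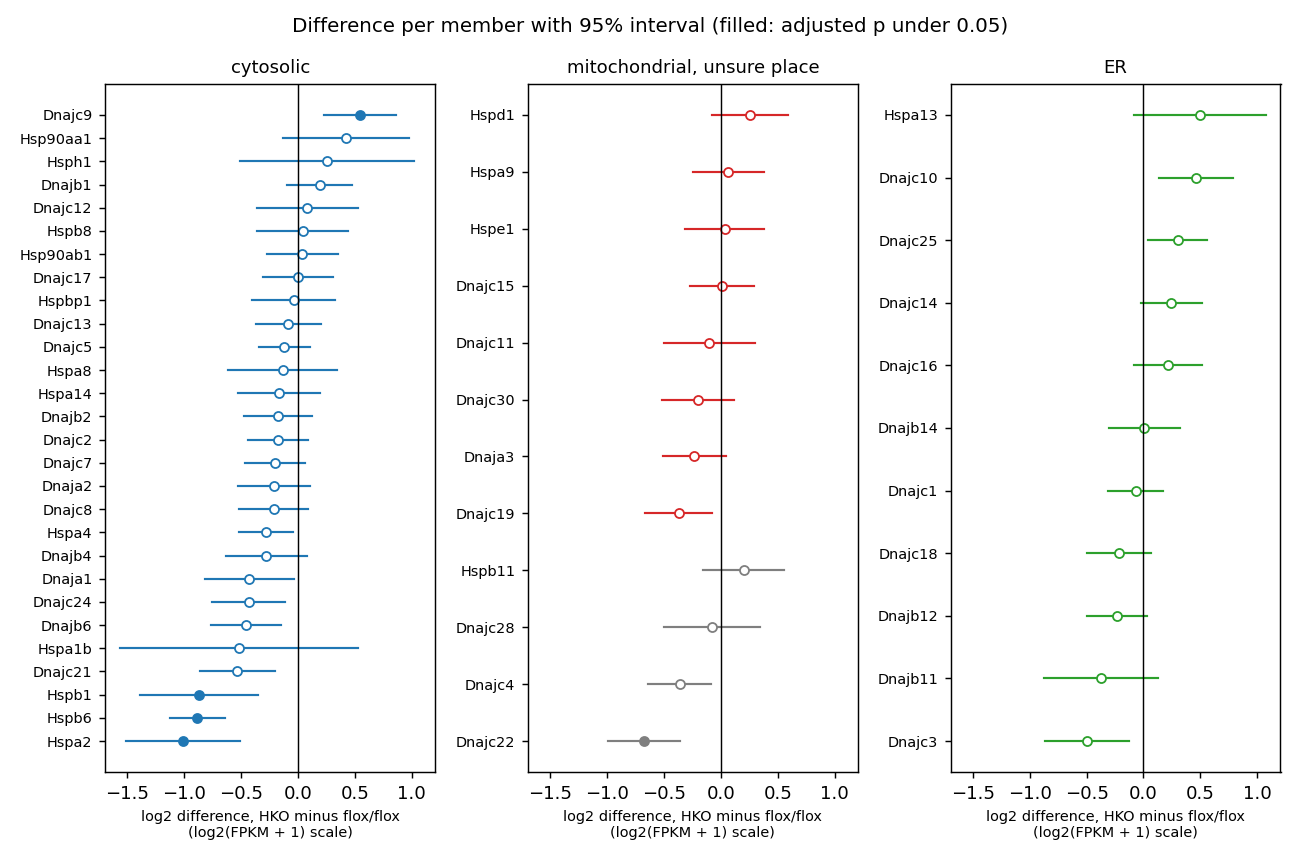
Log2 difference (HKO minus flox/flox, log2(FPKM + 1) scale) with its 95% interval for each of the 51 tested members, by place of the protein; in the middle panel grey marks the 4 members of less certain place, and filled points passed the threshold. All 8 mitochondrial and 11 ER members are open points within 0.5 of 0.

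Among the cytosolic members 28 of 47 were tested, with 1 higher and 3 lower (14.3%, beside 12.8% of all tested features). Their median log2 difference was -0.17, beside -0.06 over all tested features. The constitutive HSP90 gene Hsp90ab1 (ENSMUSG00000023944) was the most abundant member, at 235, 236 and 282 FPKM in flox/flox and 255, 252 and 264 FPKM in HKO libraries. The groups overlap, and the difference of 0.04 had a 95% interval of -0.28 to 0.35 (limma adjusted p = 0.869). Its inducible counterpart Hsp90aa1 stood at 25.6, 31.6 and 48.7 FPKM in flox/flox and at 45.2, 43.2 and 49.6 FPKM in HKO. Here flox/flox replicate 3 reached the HKO range while the other 2 controls lay below it, and the difference was 0.42 (SE 0.23, adjusted p = 0.246). Without flox/flox replicate 3 the Hsp90aa1 difference was 0.67 (adjusted p = 0.083).

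Constitutive HSP70, encoded by Hspa8, was also highest in flox/flox replicate 3. Hspa8 (chromosome 9) stood at 165, 196 and 274 FPKM in flox/flox and at 182, 185 and 199 FPKM in HKO libraries. The HKO values lie inside the flox/flox range, with a difference of -0.14 (95% interval -0.62 to 0.34, adjusted p = 0.678). Hsph1, the HSP110 exchange factor, was at 3.67, 5.03 and 10.5 FPKM in the controls and at 6.47, 6.72 and 8.44 FPKM in HKO libraries. The controls alone span all HKO values (0.25, SE 0.32, adjusted p = 0.625). Without flox/flox replicate 1 the Hsph1 value turned to -0.03, and without replicate 3 it was 0.62 (adjusted p = 0.107).

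Hspa2, an HSP70 known for its role in male germ cells, fell the most among the tested members. Its level was 3.00, 1.38 and 2.14 FPKM in flox/flox, against 0.567, 0.684 and 0.373 FPKM in the libraries labelled HKO. The groups do not overlap, and all HKO values are below 1 FPKM. The log2 difference was -1.01 (SE 0.21, adjusted p = 0.0322), and with a pseudocount of 0.1 it was -1.79. Hspa2 was the only tested member with a group mean under 1 FPKM, so it passed the level filter through the controls. These levels rest on 117, 56 and 86 reads in flox/flox and 29, 33 and 22 reads in HKO. Without HKO replicate 1, 2 or 3, or without flox/flox replicate 3, Hspa2 did not pass (adjusted p of 0.0768 to 0.093).

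Of 4 tested genes with a numbered Hspb symbol 2 fell, Hspb6 and Hspb1, beside 6.86% of all tested features. Another of the 4, Hspb11, is counted here by symbol alone and is of less certain place. It did not pass (0.20, limma adjusted p = 0.385). Hspb6 (HSP20, best known from muscle; ENSMUSG00000036854, chromosome 7, 30552178 to 30555443) stood at 5.65, 5.75 and 5.09 FPKM in flox/flox and at 2.29, 2.69 and 2.55 FPKM in HKO libraries. Every HKO value is below every control, and the spread within each genotype is narrow. Hspb6 fell by 0.89 on the log2 scale (SE 0.10, adjusted p = 0.0137), stayed below 0 under all 4 other scalings, and passed in 15 of the 17 alternatives that tested it (adjusted p = 0.0527 without flox/flox replicate 3 and 0.0552 without HKO replicate 1). Its exons share 8.79% of their bases with other genes, mainly on the opposite strand, and the sources used here do not say whether counting used strand. The smooth muscle markers Acta2, Myh11, Tagln, Des and Cnn1 summed to 2.05 to 3.50 FPKM in flox/flox and to 3.71 to 5.30 FPKM in HKO, with Acta2, Myh11, Tagln and Des each overlapping between genotypes and neither of the 2 tested genes passing. Their part in the Hspb6 result was not tested.

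Hspb1 (HSP25 in mouse), an actin-binding holdase, stood at 8.14, 13.1 and 11.3 FPKM in flox/flox and at 4.46, 4.78 and 7.22 FPKM in HKO libraries. The groups do not overlap, but HKO replicate 3 comes close to flox/flox replicate 1. Hspb1 fell by 0.87 (SE 0.22, adjusted p = 0.0481), and passed in 5 of 18 alternatives; its value was -0.52 with adjusted p = 0.20 when scaled by library totals. Hspb8, the partner of the co-chaperone BAG3 in clearing aggregates, was the most abundant small heat shock gene and did not pass, at 88.0, 97.0 and 110.4 FPKM in flox/flox and 107.5, 115 and 82.9 FPKM in HKO (0.04, 95% interval -0.36 to 0.44). Ratios within a library do not depend on depth scaling. The FPKM of Hspb1 over that of Hspb8 was 0.0925, 0.135 and 0.103 in flox/flox and 0.0415, 0.0415 and 0.087 in HKO libraries. The same ratio for Hspb6 was 0.0642, 0.0593 and 0.0461 in flox/flox and 0.0213, 0.0234 and 0.0308 in HKO. Both ratios are lower in every HKO library than in any control. The pairs were picked with their values in view, so no test was made.

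**Figure D3:**
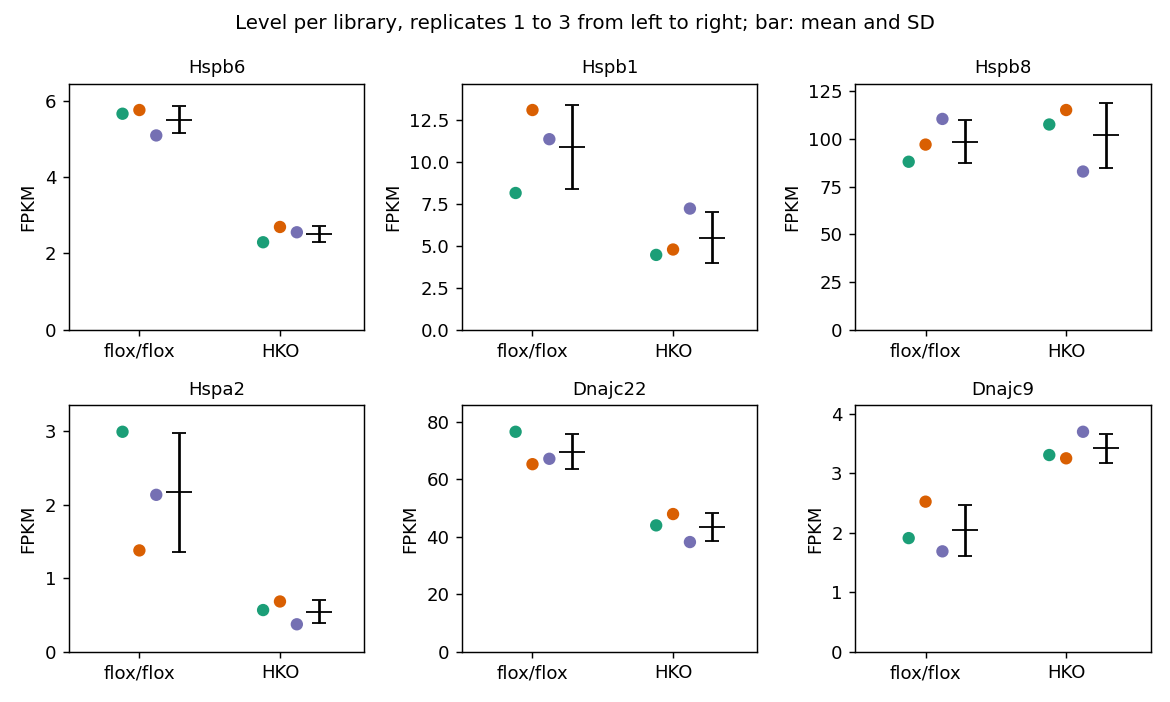
Level (FPKM) in each library of the 5 members that passed and of Hspb8, with replicates 1 to 3 from left to right in each genotype and the mean and SD as bars. The 3 HKO values of Hspb6, Hspb1, Hspa2 and Dnajc22 lie below and those of Dnajc9 above all 3 controls, while those of Hspb8 overlap.

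Of the cytosolic J-domain genes 1 passed. Dnajc9, a histone H3-H4 co-chaperone, stood at 1.91, 2.52 and 1.69 FPKM in flox/flox and at 3.30, 3.25 and 3.70 FPKM in the libraries labelled HKO. All HKO values exceed all controls, and Dnajc9 rose by 0.55 (SE 0.13, adjusted p = 0.0442). The call held in 7 of 17 alternatives and was lost whenever a library was left out (adjusted p of 0.0516 to 0.122). Dnaja1, a main HSP70 partner, stood at 24.0, 31.6 and 36.8 FPKM in flox/flox and 22.6, 22.5 and 21.8 FPKM in HKO. All HKO values are below the controls and nearly equal, but the controls spread, and the difference of -0.43 did not pass (adjusted p = 0.124; without flox/flox replicate 1 it was -0.59 with adjusted p = 0.034, and by library totals -0.04 with adjusted p = 0.904). Dnaja2, a close relative, was at 52.5, 49.4 and 43.1 FPKM in flox/flox and 39.7, 38.7 and 46.5 FPKM in HKO, with overlap between the groups (-0.21, adjusted p = 0.308). Dnajc21, which acts in ribosome assembly, did not pass (-0.53, adjusted p = 0.0506); it passed with voom on rebuilt reads (-0.64, adjusted p = 0.0419) and among protein-coding features alone (adjusted p = 0.0407).

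Of the 13 members best known as heat-inducible 12 were tested, 1 (Hspb1) fell and none rose, and their median was 0.04. Among the controls 8 of the 13, counting the untested Hspa1a, were highest in flox/flox replicate 3. Beside this stand 16 of all 51 tested members, which include the tested heat-inducible ones. Dnajb1, the classic inducible HSP40, was steady in the controls at 7.16, 6.89 and 6.95 FPKM and stood at 7.53, 7.45 and 9.55 FPKM in HKO libraries. The groups do not overlap, but the difference of 0.19 did not pass (adjusted p = 0.304); scaled by library totals it was 0.55 with adjusted p = 0.0474. Dnajb4, another member of that class, was at 5.64, 3.82 and 3.91 FPKM in flox/flox and 3.73, 3.26 and 3.35 FPKM in HKO (-0.28, adjusted p = 0.234).

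The strictly stress-induced HSP70 genes Hspa1a and Hspa1b lie side by side on chromosome 17 and were low in these livers. Hspa1b stood at 2.54, 3.95 and 4.71 FPKM in flox/flox and 0.867, 1.88 and 5.37 FPKM in HKO libraries. HKO replicates 1 and 2 lay below and replicate 3 above every control, so the groups overlap (-0.52, SE 0.44, adjusted p = 0.446). Hspa1a, not tested for its low level, had 4, 6 and 9 reads in flox/flox and 13, 13 and 31 reads in HKO. Of the 100-base windows of the longest Hspa1b transcript 49.9% occur also in Hspa1a, so the split of reads between the genes is uncertain.

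**Figure D4:**
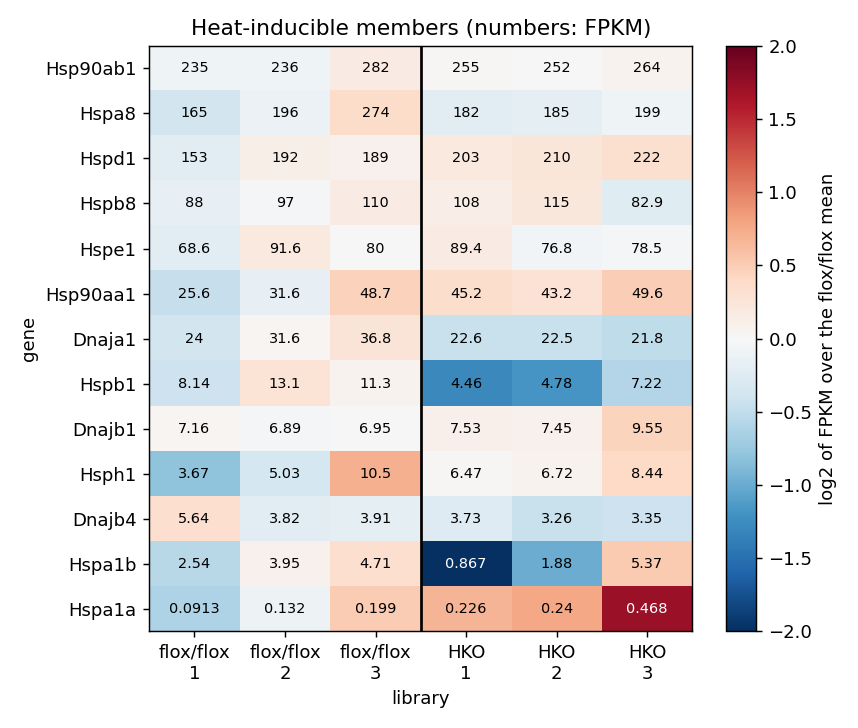
FPKM of the 13 heat-inducible members (rows) in the 6 libraries (columns), coloured by the log2 of the value over the flox/flox mean. Flox/flox replicate 3 is deepest red for Hsph1, Hspa1a and Hsp90aa1. The 3 HKO columns are blue for Hspb1, Dnaja1, Dnajb4 and Hspa8. They are red for Hspd1, Hsp90aa1, Dnajb1 and Hspa1a, and in part only faintly red for Hsph1 and Hsp90ab1.

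Promoter windows show which of the members with a window carry the HSF1 recognition letters. RefSeq windows on GRCm38.p6, from 250 bases before to 50 bases after a gene's start, were at hand for 56 members. Hspa8, Hsp90aa1 and Hsp90ab1 were among those without a window. A gene with more than 1 window counted where any of them matched. The motif of 3 units was GAA, any 2 bases, TTC, any 2 bases and GAA, or its reverse complement. It occurred in 4 of these 56 members (Hspd1, Hspe1, Hsph1 and Dnajb6) and in 0.662% of all 27025 genes of the table. Hspd1 and Hspe1 share the matched bases, and the other Hspd1 window held no match. In Hsph1 the match lies after the start. The motif of 2 units, GAANNTTC or TTCNNGAA (each its own reverse complement, so both strands are covered, and both contained in the longer motif), occurred in 9 of the 10 heat-inducible members with a window, in 16 of the 56 members and in 17.0% of all genes. A match describes the letters and not a bound site. The windows below are those of Hspd1, of 2 small heat shock genes and of the twin HSP70 genes. They run 5′ to 3′ with the longest motif present in capitals.
Hspd1 (chr1:55087883-55088182, minus strand): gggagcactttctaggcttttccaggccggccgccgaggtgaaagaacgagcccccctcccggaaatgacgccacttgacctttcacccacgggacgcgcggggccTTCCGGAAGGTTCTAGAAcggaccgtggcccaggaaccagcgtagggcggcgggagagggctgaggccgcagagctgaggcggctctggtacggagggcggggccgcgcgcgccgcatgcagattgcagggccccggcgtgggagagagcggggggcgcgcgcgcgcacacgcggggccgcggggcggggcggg
Hspb1 (chr5:135887669-135887968, plus strand): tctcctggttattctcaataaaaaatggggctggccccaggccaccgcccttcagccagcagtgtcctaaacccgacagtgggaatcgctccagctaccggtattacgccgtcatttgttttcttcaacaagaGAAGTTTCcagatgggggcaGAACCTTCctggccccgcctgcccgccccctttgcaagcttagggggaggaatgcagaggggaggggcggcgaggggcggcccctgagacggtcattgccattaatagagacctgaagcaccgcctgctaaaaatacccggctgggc
Hspb8 (chr5:116422815-116423114, minus strand): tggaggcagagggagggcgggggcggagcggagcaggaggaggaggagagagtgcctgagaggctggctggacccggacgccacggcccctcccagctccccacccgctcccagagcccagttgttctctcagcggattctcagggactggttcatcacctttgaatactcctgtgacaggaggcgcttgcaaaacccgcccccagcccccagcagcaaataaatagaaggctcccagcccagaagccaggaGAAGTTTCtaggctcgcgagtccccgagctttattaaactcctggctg
Hspa1a (chr17:34972107-34972406, minus strand): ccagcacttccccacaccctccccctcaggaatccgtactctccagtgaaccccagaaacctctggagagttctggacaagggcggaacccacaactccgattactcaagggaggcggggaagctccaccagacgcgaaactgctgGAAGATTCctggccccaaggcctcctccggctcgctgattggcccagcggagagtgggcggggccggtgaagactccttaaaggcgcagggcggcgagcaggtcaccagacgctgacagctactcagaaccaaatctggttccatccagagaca
Hspa1b (chr17:34959189-34959488, minus strand): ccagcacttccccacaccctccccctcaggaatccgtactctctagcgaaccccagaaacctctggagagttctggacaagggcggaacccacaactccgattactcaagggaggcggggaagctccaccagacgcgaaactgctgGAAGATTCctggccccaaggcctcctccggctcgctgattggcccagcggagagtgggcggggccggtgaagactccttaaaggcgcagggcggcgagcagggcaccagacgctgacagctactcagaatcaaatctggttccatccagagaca
Hspb1, which fell, held 2 matches to the motif of 2 units, both before the start. Hspb8, which did not pass, held 1 match, after the start. A relation of the motif to the differences was not tested. The windows of Hspa1a and Hspa1b are identical at 296 of 300 positions. Among the members that passed, 4 had a window (Hspa2, Hspb1, Hspb6 and Dnajc9) and none held the motif of 3 units, while Hspb1 and Hspb6 held that of 2 units.

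All 8 mitochondrial members were tested and none passed by limma, with a median of -0.04. At an unadjusted p under 0.05 was 1 gene, beside 33.8% of all tested features. Hspd1 (HSP60) and Hspe1 (HSP10) lie head to head on chromosome 1, and 285 of the 300 bases of the Hspd1 window printed above belong also to the Hspe1 window on the other strand. Hspd1 stood at 153, 192 and 189 FPKM in flox/flox and 203, 210.2 and 222 FPKM in the libraries labelled HKO. The groups do not overlap and the HKO libraries are higher, with flox/flox replicate 1 lowest, but the difference of 0.26 (SE 0.14, adjusted p = 0.245) did not pass. It passed under quantile normalization (0.70, adjusted p = 0.0444), with FPKM sums made equal (0.66, adjusted p = 0.0371) and by library totals (0.66, adjusted p = 0.043), where 5.86%, 21.3% and 19.2% of all tested features were called higher. Hspe1 was at 68.6, 91.6 and 80.01 FPKM in flox/flox and 89.4, 76.8 and 78.5 FPKM in HKO, with overlapping groups (0.03, 95% interval -0.32 to 0.38). Within a library Hspd1 was 2.23, 2.10 and 2.36 times the level of Hspe1 in flox/flox and 2.27, 2.74 and 2.82 times in HKO, and these ratios overlap. A processed pseudogene, Hspd1-ps3, was listed at 5.35, 23.2 and 7.63 FPKM in flox/flox and 11.3, 10.6 and 8.90 FPKM in HKO; whether reads were split between it and Hspd1 was not tested.

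Hspa9 (mortalin), the matrix HSP70 that also pulls proteins through the inner membrane, varied little among controls. Its level was 144, 153 and 149 FPKM in flox/flox and 154, 141 and 174 FPKM in HKO, with HKO replicate 3 highest (0.07, adjusted p = 0.752). Dnaja3, its J-domain partner in the matrix, was at 35.3, 35.9 and 35.4 FPKM in flox/flox and 28.2, 28.4 and 33.96 FPKM in HKO. Every HKO value is below the controls, and the difference was -0.23 (SE 0.12, adjusted p = 0.21). Dnajc19, a J-domain subunit of the import motor, was at 10.6, 10.4 and 8.71 FPKM in flox/flox and 8.15, 7.47 and 6.62 FPKM in HKO, again without overlap (-0.37, adjusted p = 0.088; -0.01 with adjusted p = 0.959 by library totals). Its processed pseudogene Dnajc19-ps was listed at 5.15 to 10.9 FPKM. Of the 8 members 4 had a difference above 0 (Hspd1, Hspa9, Hspe1 and Dnajc15) and 4 below.

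All 11 ER members were tested and none passed by limma, with a median of 0.01, 6 values above 0 and 5 below. An unadjusted p under 0.05 was found for 3 of them, beside 33.8% of all tested features. Dnajc3 (p58IPK), a luminal co-chaperone of BiP, was the most abundant, at 62.1, 66.3 and 79.5 FPKM in flox/flox and 54.6, 50.6 and 41.6 FPKM in HKO libraries. All HKO values lie below all controls, with a difference of -0.50 (SE 0.16, adjusted p = 0.0798; -0.098 with adjusted p = 0.685 by library totals). Dnajc10 (ERdj5), a disulfide reductase of ER-associated degradation, had a difference of the other sign, at 6.59, 6.94 and 6.72 FPKM in flox/flox and 11.2, 7.94 and 10.2 FPKM in HKO. These groups do not overlap either, and the difference was 0.46 (SE 0.14, adjusted p = 0.0669; 0.82 with adjusted p = 0.021 by library totals). Hspa13, a microsomal ATPase related to HSP70, was at 4.66, 6.23 and 9.39 FPKM in flox/flox and 11.05, 7.66 and 10.4 FPKM in HKO. Flox/flox replicate 3 reached into the HKO range, and the difference of 0.49 did not pass (adjusted p = 0.202; 0.73 with adjusted p = 0.101 without that library).

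Dnajb11 (ERdj3), which hands secretory clients to BiP, stood at 25.7, 26.0 and 38.3 FPKM in flox/flox and 27.7, 22.3 and 18.6 FPKM in HKO. The groups overlap (-0.37, adjusted p = 0.258). Dnajb12, an ER membrane J-domain protein of quality control, was at 17.1, 15.1 and 15.8 FPKM in flox/flox and 13.1, 12.5 and 14.8 FPKM in HKO, without overlap (-0.23, adjusted p = 0.189). Divided by Dnajc3 in the same library, Dnajc10 was 0.106, 0.105 and 0.0845 in flox/flox and 0.205, 0.157 and 0.246 in HKO, and Hspa13 was 0.0751, 0.094 and 0.118 in flox/flox and 0.202, 0.151 and 0.25 in HKO. Both ratios are higher in every HKO library than in any control, whatever the depth scaling; these pairs, too, were picked with their values in view. Dnajc14, Dnajc16 and Dnajc25, all ER membrane proteins, had differences of 0.25, 0.21 and 0.30 with limma adjusted p of 0.107 to 0.275. These 3 are named outside the rule for members described in full. The remaining ER members Dnajb14, Dnajc1 and Dnajc18 had differences of 0.01, -0.07 and -0.22. With FPKM sums made equal Dnajc14, Dnajc16, Dnajc25 and Dnajc10 passed, each higher in HKO, and the other ER members did not. Under that scaling 21.3% of all tested features were called higher.

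**Figure D5:**
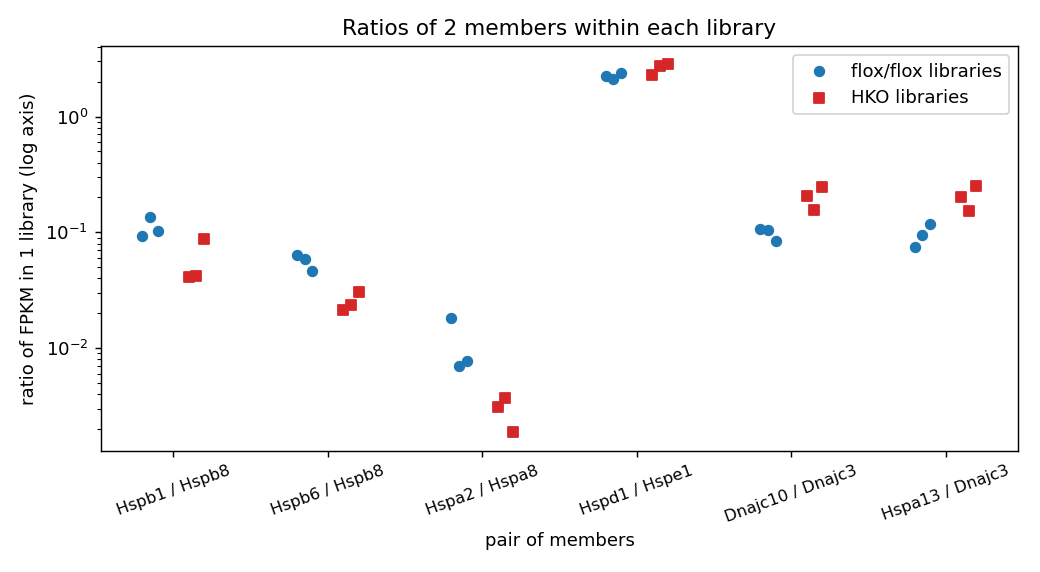
Ratio of the FPKM of 2 members within each library (y axis, log scale) for 6 pairs, circles for flox/flox and squares for HKO. The ratios of Hspb1, Hspb6 and Hspa2 to an abundant relative are lower and those of Dnajc10 and Hspa13 to Dnajc3 are higher in all 3 HKO libraries, while Hspd1 over Hspe1 overlaps.

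Dnajc22, a J-domain membrane protein whose Drosophila counterpart wurst acts in clathrin-mediated endocytosis, was the only member of uncertain place that passed. It was at 76.6, 65.3 and 67.2 FPKM in flox/flox and at 44.0, 47.9 and 38.2 FPKM in the libraries labelled HKO (chromosome 15, 99093170 to 99104737). The groups lie well apart, and Dnajc22 fell by 0.67 (SE 0.13, adjusted p = 0.0295). The value was -0.37 under quantile normalization and -0.28 by library totals, where it did not pass (adjusted p of 0.0772 and 0.0982), and leaving out any library but flox/flox replicate 1 also ended the call (adjusted p of 0.0617 to 0.0869). Dnajc22 was the most abundant member that passed. The summed hepatocyte markers, mostly Alb, were at 43712 to 72568 FPKM in flox/flox and 20368 to 40425 FPKM in HKO. None of the 6 genes passed, and Apoa1 and Tat overlapped between genotypes. The median difference of the 6 markers was -0.68 as deposited and 0.03 under quantile normalization. By library totals and with equal FPKM sums the marker median was -0.28. Their part in the Dnajc22 result was not tested.

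The 26 tested members not described in full had differences of -0.53 to 0.30, and their lowest adjusted p was 0.0506. The 19 members below the level filter had means of at most 0.924 FPKM. Of these, Dnajc5b, Dnajc5g and Hspb3 were listed at 0 in all 6 libraries, and several are known from testis or muscle (Dnajb13, Dnajb8, Dnajb7, Hspb7). Hspa4l, an HSP110 relative, had 6, 14 and 6 reads in flox/flox and 72, 9 and 67 reads in HKO libraries. HKO replicates 1 and 3 stand above the rest while replicate 2 lies among the controls. Dnajb13 had 3, 3 and 2 reads in flox/flox and 19, 8 and 21 reads in HKO, without overlap at counts too low to test. Its exons share 11.2% of their bases with Ucp2 on the opposite strand. Whether reads of Ucp2 were counted for Dnajb13 was not tested.

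The machinery around the members showed few calls as well. Hsf1, the regulator of the heat shock response, was at 3.13, 3.28 and 2.93 FPKM in flox/flox and 2.39, 2.22 and 2.46 FPKM in HKO. All HKO values are below all controls (-0.29, adjusted p = 0.0907), and none of the 3 tested HSF genes passed; the most abundant, Hsf4, had a difference of -0.38 (adjusted p = 0.382). Hsf1 was named for its role, outside the naming rule and after its values were seen. Of 23 tested HSP70 and HSP90 co-chaperones 2 fell and none rose, with a median of -0.20. Fkbp8, a membrane-anchored HSP90 co-chaperone, fell from 70.0 ± 4.06 to 38.2 ± 5.78 FPKM (mean ± SD, n = 3; -0.87, limma adjusted p = 0.0212), and Cdc37l1, a relative of the kinase co-chaperone CDC37, from 6.80 ± 1.42 to 3.58 ± 0.552 FPKM (-0.76, limma adjusted p = 0.034). Of 13 matched subunits of the cytosolic chaperonin and prefoldin, Pfdn2 fell from 18.8 ± 2.15 to 12.4 ± 0.765 FPKM (-0.56, limma adjusted p = 0.0346), and no chaperonin subunit passed.

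None of 13 mitochondrial partners and proteases passed. The most abundant was Trap1, the mitochondrial HSP90, at 80.5, 82.3 and 84.0 FPKM in flox/flox and 74.7, 78.6 and 74.3 FPKM in HKO (-0.12, limma adjusted p = 0.474). Among 17 ER folding genes outside the members 1 rose and 1 fell. Sec63, the J-domain subunit of the protein translocation channel, fell from 19.1 ± 0.384 to 13.6 ± 0.639 FPKM (n = 3; -0.46, limma adjusted p = 0.0322). Serpinh1 (HSP47), the collagen chaperone, rose from 4.79 ± 1.23 to 13.3 ± 4.42 FPKM (n = 3; 1.28, limma adjusted p = 0.0351). The collagen genes Col1a1 and Col3a1 of the stellate cell and fibroblast markers were also higher in HKO libraries, and their part in the Serpinh1 result was not tested. These lists were described by counts alone, beside the 12.8% of all tested features that passed.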

How the data were processed

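Liver mRNA, purified with oligo-dT beads, gave 3 flox/flox and 3 HKO paired-end libraries, grouped by sample titles. HISAT2 2.0.5 for alignment, featureCounts 1.5.0-p3 for gene quantification and the build GRCm38.p6 are named by the submitters' processing notes and the series text. The authors deposited FPKM with gene lengths, coordinates and biotypes. In each library 100% of the values above 0 came out as whole reads within 0.01 read after multiplying by gene length and 1 factor. As nothing ties libraries to separate mice, p-values cover only the spread among the libraries, which may be technical.

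limma 3.58.1 in R 4.3.3 was fitted on log2(FPKM + 1) of the 11086 features whose mean reached 1 FPKM, with genotype as the only term and variances moderated along an intensity trend; two-sided p-values were Benjamini-Hochberg adjusted over all of them (threshold 0.05). Differences are HKO minus flox/flox on that log2 scale, which understates changes of low genes. The fit was tested on simulated data. Replicates are given as values or mean ± SD. Members, groups and lists were chosen with earlier results of these data known. Described in full were members that passed, the 5 most abundant per compartment, 13 heat-inducible genes, and those with a 2-fold range within a genotype at 5 FPKM or more; from each list up to 4 genes that passed, or the most abundant. Markers were 5 Kupffer cell, 6 stellate, 5 smooth muscle and 6 hepatocyte genes named in the design; endothelial, cholangiocyte, lymphocyte, neutrophil and erythroid lists were also read. Exon overlap used GENCODE M21. Alternatives covered pseudocount, filter, scaling, variance model, voom, a replicate block, biotype and each library left out. Python 3.11.15 prepared tables and figures.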

Additional observations from a re-analysis of the deposited data

How the results depend on the processing

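Counts of called members are small and moved with most settings. The filter of 5 FPKM left Dnajc9, Hspb6 and Hspa2 untested (means of 2.73, 4.01 and 1.36 FPKM), while Dnajc22 and Hspb1 still passed. For the other settings the cause was not tested. Of all features 1421 passed, against 30 to 1454 with a library left out, 510 with no level filter, 2584 with FPKM sums made equal without the 20 highest features, 2345 by library totals and 199 with the replicate block. Of the 51 tested members 1 was called higher, against 7 with equal sums and 6 by library totals (cytosolic 2 and 2, ER 4 and 3, mitochondrial 1 and 1). Of all tested features 5.95% were called higher as deposited, 21.3% with equal sums and 19.2% by library totals. Members called higher numbered 0 with a filter of 5 FPKM, no filter, voom or the block, where cytosolic members called higher were also 0. Quantile normalization gave 1 mitochondrial, 0 cytosolic and 1 member higher in all, and 2 lower. Members called lower numbered 4, against 2 with the filter of 5 FPKM (1 cytosolic), 1 without a filter (1 cytosolic), 2 with equal sums, 2 by library totals and 1 under the block (1 cytosolic). With a library left out 0 members were higher and 0 to 5 lower (cytosolic 0 and 0 to 4; none in the ER or mitochondria). The sum and total scalings called 91.4% and 90.9% of passing features higher, against 46.4% as deposited.

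Among the members described in full, signs turned for genes that did not pass, and none of these values passed: Dnaja2 (0.056 by quantile normalization, 0.18 with equal sums, 0.18 by totals), Dnaja3 (0.16 and 0.16 with sums and totals), Dnajb11 (0.0137 and 0.0161), Dnajb12 (0.14 and 0.15), Dnajb4 (0.0413 and 0.0436) and Hspa8 (0.31 by quantile normalization, 0.26 with equal sums, 0.27 by totals). With a library left out, signs also turned for Hsp90ab1 (range -0.0058 to 0.124; -0.0035 without flox/flox replicate 2), Hspa8 (-0.299 to 0.0676), Hspa9 (-0.0131 to 0.14), Hspb8 (-0.0541 to 0.18; -0.0369 and -0.0054 without flox/flox replicate 1 and HKO replicate 1), Hspe1 (-0.0723 to 0.134; -0.034 without HKO replicate 1) and Hsph1 (-0.0275 to 0.622). The 5 members that passed kept their sign in every alternative that tested them. The labels do not say whether libraries of the same replicate number belong together. Same-numbered deviations from the group means had correlations of -0.0026, -0.0996 and -0.0673. With 3 libraries in each group these values cannot tell whether pairs exist. Under the block Hspb6 alone of the 5 passed (limma adjusted p = 0.0481). Few reads lie behind some values, with 22 to 117 a library for Hspa2, 34 to 57 for Dnajc17 and 4 to 31 for the untested Hspa1a.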
